A study of Cricetulus griseus with 19 samples.

Results

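Bulk RNA sequencing of polyadenylated RNA was compared between 7 libraries of Paradaux cells kept under paradoxical feedback and 7 kept under negative feedback, which are 14 of the 19 libraries of the series. Libraries were chosen by their culture condition label alone, and the parental and uncontrolled libraries were not part of the comparison. Per the labels every library came from the CHO-K1 cell line, an immortalised ovary-derived line of the Chinese hamster, and all 14 came from long-term culture. Cells of both groups grew for 2 days below 80% confluence before harvest. Both groups carry the inserted construct of the Paradaux line and differ by label in the feedback mode. Whether the construct stayed unchanged in long-term culture was not tested. The labels do not name the agents that set the mode or the duration of culture. Separate propagation of the numbered cultures is not stated either, so p-values here describe only how far these samples spread, and some of that spread may be technical. In bulk RNA, a smaller share of cells expressing a gene and less RNA per cell cannot be told apart.

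In a population control circuit, cells release a diffusible signal, so that its concentration reports their density, and the same cells respond to it. Under negative feedback the signal only limits growth, and a mutant that no longer senses it can take over the culture. Under paradoxical feedback the signal acts both for and against growth, which puts a non-sensing mutant at a disadvantage. Long-term culture under a growth-limiting or death-inducing circuit is therefore a setting in which genes of the cell cycle, apoptosis and protein folding stress are of interest. The files measure RNA, not growth or death.

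The 7 negative feedback cultures were not alike, and this has to be known before any comparison with them. Cultures 1 and 2 stood apart from cultures 3 to 7. The root-mean-square difference in log2 counts per 1 M (CPM) between 2 libraries averaged 2.60 across the 10 pairs that join these negative sets, against 1.60 between cultures 1 and 2 and 1.50 within cultures 3 to 7. The 7 paradoxical cultures lay 1.70 from each other on average, 1.96 from negative cultures 1 and 2 and 2.07 from negative cultures 3 to 7. On the line that joins the mean of negative cultures 1 and 2, set at 0, to the mean of cultures 3 to 7, set at 1, the paradoxical cultures lay from 0.296 to 0.585 with a median of 0.545. On this line all 7 thus lay between the negative sets. The position measures this direction alone, and a library that differs from both sets in other directions can also fall between them. It therefore does not by itself show an intermediate profile. Paradoxical cultures 1, 5 and 6 were nearer to negative cultures 1 and 2, whereas 2, 3, 4 and 7 were nearer to cultures 3 to 7. Each paradoxical library had another paradoxical library as its nearest neighbour. The split of the negative cultures is not a label: it was seen in earlier results of these data, so the difference between the negative sets is a description, and the spread within each set is likely to be understated by the way the sets were drawn.

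Short transcripts took unequal shares of the counts, in the same order. Targets under 800 nt took 14.1% and 13.3% of the estimated counts in negative cultures 1 and 2, from 6.12% to 7.22% in cultures 3 to 7, and from 8.50% to 12.4% in the paradoxical cultures, so the 3 sets did not overlap. Taken over all 7 negative cultures, the mean was 10.1% ± 1.38 (SD, n = 7) under paradoxical and 8.53% ± 3.54 (SD, n = 7) under negative feedback, a difference of 1.55 percentage points (two-sided exact permutation p = 0.298, Benjamini-Hochberg adjusted p = 0.584 over 4 library measures). Against cultures 1 and 2 alone the paradoxical share was 3.59 points lower (difference of -3.59, exact permutation p = 0.0278), and against cultures 3 to 7 it was 3.60 points higher (exact permutation p = 0.00126). Each of the p-values against a negative set is the smallest that its design allows. Since the sets were drawn from earlier results of these same libraries, these p-values describe a separation and do not test it. Depth was similar in the groups, with 12.03 ± 0.459 M estimated counts per library under paradoxical and 11.7 ± 1.15 M under negative feedback (SD, n = 7 each, exact permutation p = 0.510).

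**Figure D1:**
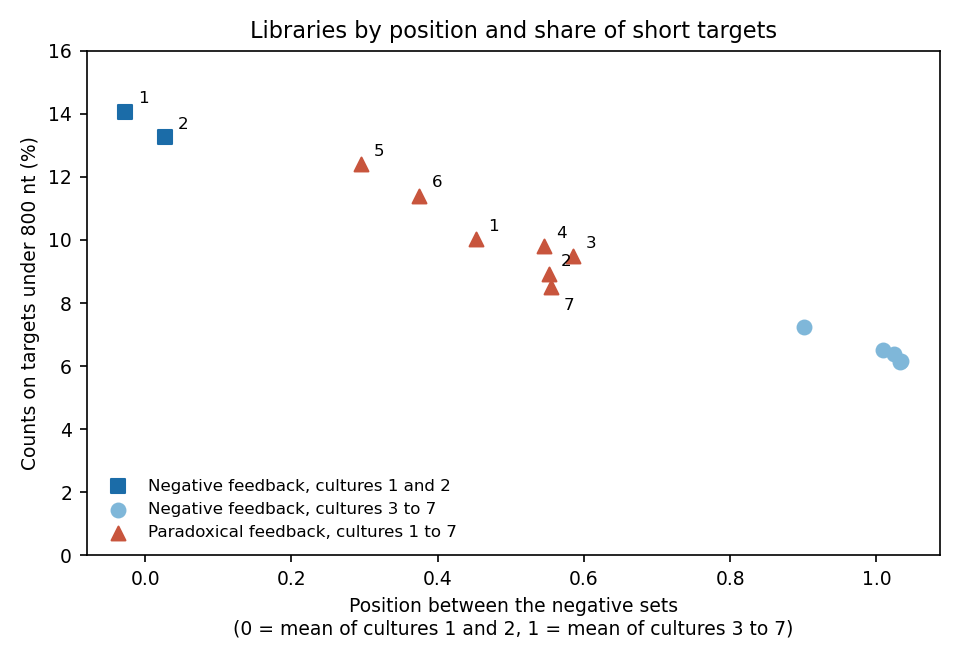
Each point is 1 library; the horizontal axis is its position between the negative sets (0 is the mean of negative cultures 1 and 2, 1 the mean of cultures 3 to 7) and the vertical axis the percent of its estimated counts on targets under 800 nt. The 7 paradoxical libraries (triangles, numbered) lie between 0.296 and 0.585 and between 8.50% and 12.4%, apart from both negative sets on both axes.

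Against all 7 negative cultures no gene differed past the threshold, although many differed from one or the other negative set. Of 20297 tested transcript targets, 0 (0%) had an adjusted p under 0.05 by edgeR's quasi-likelihood test with Benjamini-Hochberg adjustment, while 2920 had an unadjusted p under 0.05. DESeq2 called 1172 and limma-voom 41. Without negative culture 1 the edgeR count was 375, without negative culture 2 it was 265, and without paradoxical culture 4 it was 95; without any 1 of the others it was at most 8. With the negative cultures treated as separate sets in a single fit, 3618 targets (17.8%) differed from cultures 1 and 2, of which 2232 (11%) were higher and 1386 (6.83%) lower under paradoxical feedback; limma-voom gave the opposite balance, with 1376 higher and 2294 lower. Against cultures 3 to 7, 5626 targets (27.7%) differed, 3079 (15.2%) of them higher and 2547 (12.5%) lower. Both comparisons use the same 7 paradoxical libraries and are not independent. The set of 2 cultures weighs heavily on the first: its count was 1281 without negative culture 1 and 1896 without negative culture 2.

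Few of these differences held against both negative sets. In the same direction 132 targets (0.65%) were called, 97 (0.478%) higher and 35 (0.172%) lower under paradoxical feedback; with DESeq2's size factors in edgeR the split was 72 and 45. In opposite directions, 1406 targets (6.93%) were called (526 without negative culture 1 and 788 without negative culture 2): 749 (3.69%) lay above cultures 1 and 2 and below cultures 3 to 7, and 657 (3.24%) lay below the first and above the second. Calls between the negative sets thus outnumbered calls beyond both of them, also with a separate fit for each set (701 and 52). The sets were drawn from earlier results of these data, which favours calls between them. These counts therefore describe the libraries and do not test whether paradoxical cultures are intermediate. A target had no overlap between its 7 paradoxical and 7 negative values in 149 cases (0.734%), 102 (0.503%) of them higher and 47 (0.232%) lower under paradoxical feedback (79 and 64 with DESeq2's size factors). That count was 283 without negative culture 1, 253 without negative culture 2, 274 without paradoxical culture 2 and 361 without paradoxical culture 4. Leaving out a library makes the absence of overlap easier to reach, so a rise was built in. Over all single libraries left out the count ran from 158 to 361. Of the 132 targets called against both sets in 1 direction, 57 also had no overlap, 43 higher and 14 lower. The count of 132 fell to 33 without negative culture 1 and 48 without negative culture 2, to 77 without negative culture 4 and 87 without negative culture 6, and it was 218 without paradoxical culture 2 and 326 without paradoxical culture 4. With the trend of fold change on transcript length removed it was 72, of which 32 were among the 132.

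**Figure D2:**
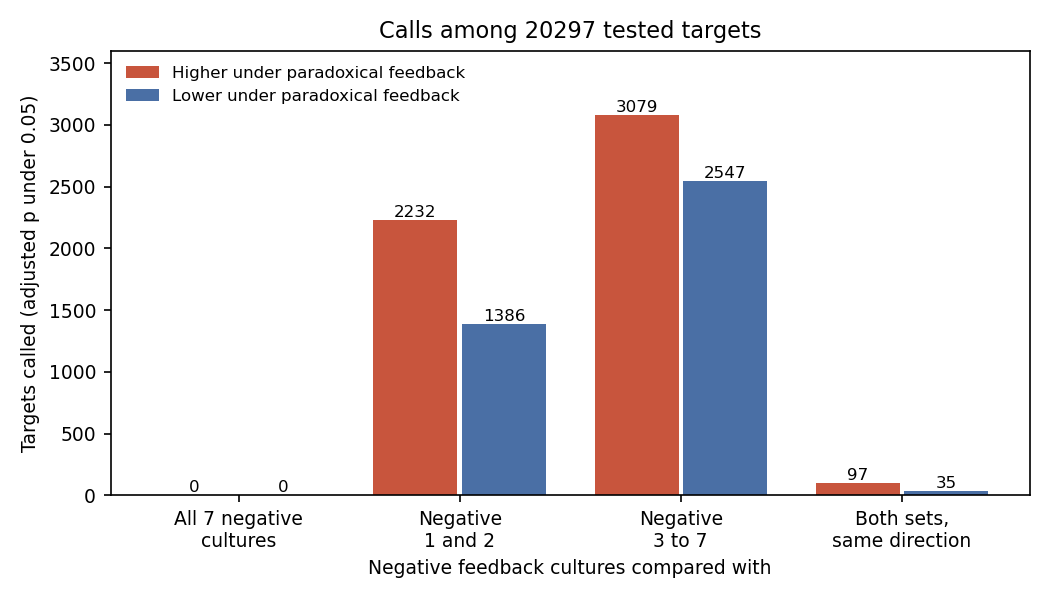
Bars give the number of targets called at an adjusted p under 0.05 by edgeR's quasi-likelihood test among 20297 tested, higher (red) or lower (blue) under paradoxical feedback, against all 7 negative cultures, against each negative set and against both sets in the same direction. The count is 0 against all 7 negative cultures, 3618 and 5626 against the sets and 132 (97 and 35) against both.

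Only 255 of the tested targets could be tied to a gene symbol, and the gene-level results below concern them. Against cultures 1 and 2, 100 of the 255 (39.2%) were called, 81 higher and 19 lower, where 17.8% of all tested targets were called. Against cultures 3 to 7, 114 (44.7%) were called, 51 higher and 63 lower, where 27.7% of all were called. By direction, 31.8% of named genes were higher and 7.45% lower than in cultures 1 and 2, and 20% were higher and 24.7% lower than in cultures 3 to 7; the counts of each gene list below stand against these shares. Of the 4952 targets with whole counts, whose reads are not shared, 26.7% and 38.7% were called against the sets in turn. In opposite directions 47 (18.4%, against 6.93% of all targets) were called, 36 above cultures 1 and 2 and below cultures 3 to 7 and 11 the reverse. In the same direction 4 (1.57%, against 0.65% of all targets) were called, all of them higher under paradoxical feedback than both negative sets, and 0 were called lower than both. These 4 are a ribosomal protein gene, a carbonyl reductase gene, a respiratory chain gene and LOC100689009, a protein-coding gene without a functional name in the files.

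LOC100689009 was the 1 of these 4 without overlap between the groups. It measured 80.0, 63.0, 77.1, 71.9, 61.7, 76.7 and 81.6 CPM in negative cultures 1 to 7 and 154, 137, 109, 149, 110, 97.8 and 108 CPM in paradoxical cultures 1 to 7. Every paradoxical culture was above every negative culture, and the negative sets were at like levels. The log2 fold change was 0.79 ± 0.19 (SE) against cultures 1 and 2 (adjusted p = 0.0119) and 0.74 ± 0.13 against cultures 3 to 7 (adjusted p = 0.0016) by edgeR's quasi-likelihood test. Over all 7 negative cultures it was 0.75 ± 0.12 (adjusted p = 0.0585), which missed the threshold and passed it without negative culture 1 or 2 or paradoxical culture 4 (adjusted p = 0.0325, 0.0372 and 0.0328). Its reads are shared with similar transcripts, so the division among them adds an error that the files do not show. Without negative culture 2 the call against the remaining culture of that set was lost (0.63, adjusted p = 0.15).

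Rps4x, a protein of the small ribosomal subunit encoded on the X chromosome, was the most abundant of the 4. Negative cultures measured 1105, 1074, 1238, 1151, 1135, 1159 and 1274 CPM, and paradoxical cultures 1697, 1528, 1865, 1398, 2214, 1942 and 1203 CPM. The groups overlapped only through paradoxical culture 7, which lay below negative cultures 3 and 7. The log2 fold change was 0.64 ± 0.19 against cultures 1 and 2 and 0.51 ± 0.13 against cultures 3 to 7 (adjusted p = 0.0336 and 0.0135 by edgeR's quasi-likelihood test). Against all 7 it was 0.54 ± 0.13 (adjusted p = 0.105). The call against cultures 1 and 2 was lost without negative culture 1 or 2 and without paradoxical culture 1, 3 or 6 (adjusted p from 0.050 to 0.19), and with the length trend removed the value against cultures 3 to 7 fell to 0.09 (adjusted p = 0.57).

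Chcr2 encodes a Chinese hamster carbonyl reductase, an enzyme that reduces carbonyl groups of small molecules. It ranged from 58.1 to 92.1 CPM with a median of 69.5 CPM in negative cultures and from 72.1 to 133 CPM with a median of 107 CPM in paradoxical cultures, and the groups overlapped. The log2 fold change was 0.74 ± 0.21 against cultures 1 and 2 (adjusted p = 0.0291) and 0.45 ± 0.15 against cultures 3 to 7 (adjusted p = 0.0373). Sdhc, a membrane anchor subunit of respiratory complex II, ranged from 62.9 to 84.5 CPM with a median of 67.8 CPM in negative cultures and from 80.5 to 96.1 CPM with a median of 86.3 CPM in paradoxical cultures. Its log2 fold change was 0.44 ± 0.11 against cultures 1 and 2 (adjusted p = 0.0135) and 0.22 ± 0.08 against cultures 3 to 7 (adjusted p = 0.0494). Both genes share reads with similar transcripts. Against cultures 3 to 7 the Chcr2 call held in 11 and the Sdhc call in 5 of 25 alternative settings. With the length trend removed Chcr2 fell to 0.15 (adjusted p = 0.497) and Sdhc turned to -0.077. Both calls against cultures 1 and 2 were lost without negative culture 1 or 2. These adjusted p-values also come from edgeR's quasi-likelihood test.

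**Figure D3:**
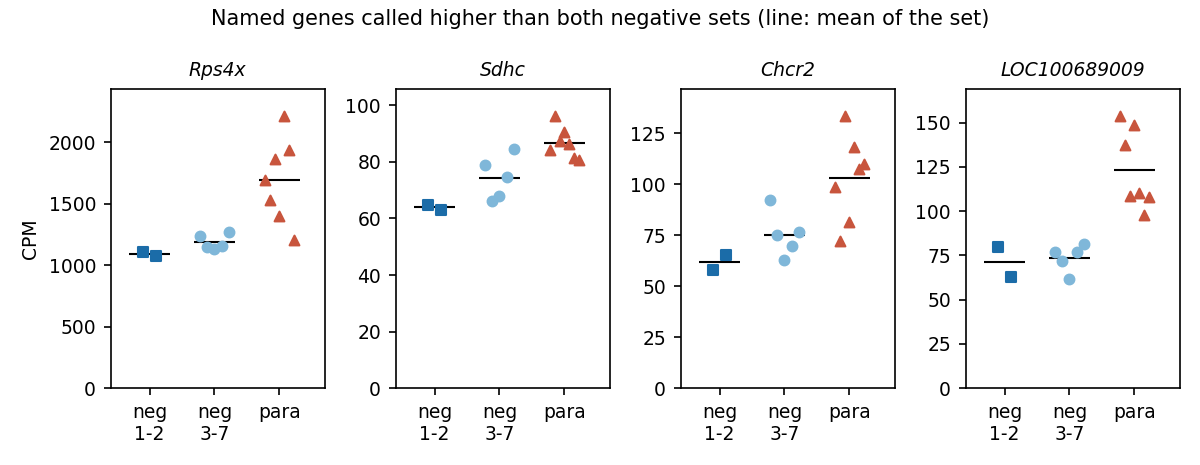
CPM on a linear axis from 0 in each library of negative cultures 1 and 2 (squares), negative cultures 3 to 7 (circles) and the paradoxical cultures (triangles), with a line at each mean. LOC100689009 shows no overlap between the groups, whereas Rps4x, Sdhc and Chcr2 overlap in part.

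Among the 128 unnamed targets called against both sets in 1 direction, 2 that rose most and 2 that fell most are given by their RefSeq identifiers, since the files pair them with no gene. XM_016978432.2, a predicted transcript of 7097 nt, ranged from 117 to 199 CPM with a median of 152 CPM in negative cultures and from 43.0 to 109 CPM with a median of 59.0 CPM in paradoxical cultures, without overlap. Its log2 fold change was -1.11 ± 0.29 against cultures 1 and 2, -1.35 ± 0.23 against cultures 3 to 7 and -1.29 ± 0.21 against all 7 (adjusted p = 0.0192, 0.00108 and 0.0585 by edgeR's quasi-likelihood test). XR_001726418.1, a predicted noncoding transcript, was at most 2.02 CPM in paradoxical cultures and ran from 0.0763 to 18.6 CPM in negative cultures, with negative culture 7 lowest. XM_027389490.1 rose by 2.03 ± 0.62 and 1.33 ± 0.41 on the log2 scale against the negative sets in turn (adjusted p = 0.0375 and 0.0277), and XM_007642301.3 by 1.98 ± 0.51 and 1.28 ± 0.34 (adjusted p = 0.0178 and 0.0135), also by edgeR's quasi-likelihood test. Paradoxical and negative values overlapped for the last 3.

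The inserted construct itself did not differ past the threshold. Its 8694 nt target measured 2300.5, 2084, 1759, 1604, 1819.9, 1430.2 and 1504 CPM in negative cultures 1 to 7 and 1967, 1554, 2048, 1244, 1929, 2096 and 1250.4 CPM in paradoxical cultures 1 to 7. The values overlapped throughout. The log2 fold change was -0.05 ± 0.16 against all 7 negative cultures (adjusted p = 0.939), -0.34 ± 0.20 against cultures 1 and 2 and 0.09 ± 0.15 against cultures 3 to 7 (adjusted p = 0.266 and 0.701 by edgeR's quasi-likelihood test). The sign over all 7 turned without negative culture 1 (0.027) and without paradoxical culture 4 or 7 (0.019 and 0.020). It also turned with the length trend removed (0.33). The target sums all parts of the construct, so the files do not resolve its separate genes.

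Single genes of the unfolded protein response differed from either negative set, and none was called against both in the same direction. This response raises chaperones and degradation factors when unfolded protein gathers in the endoplasmic reticulum. Of 9 tested members of the list, 1 was higher and 2 were lower than in negative cultures 1 and 2, 0 were higher and 3 were lower than in cultures 3 to 7, and 0 held against both. The 3 of 9 called against each set were no larger a share than among all named genes (39.2% and 44.7%). The median log2 fold change of the list was -0.12 against the first set and -0.00 against the second, where all tested targets had 0.07 and 0.08. Hspa5, the main chaperone of the endoplasmic reticulum, measured 12311 and 11559 CPM in negative cultures 1 and 2, from 1715 to 1846 CPM in cultures 3 to 7, and from 1079.9 to 2843 CPM with a median of 1909 CPM in paradoxical cultures. Paradoxical cultures were far below the first set and overlapped the second (log2 fold change -2.60 ± 0.25, adjusted p = 5.45e-05, and 0.14 ± 0.20, adjusted p = 0.655, by edgeR's quasi-likelihood test). Creld2, a secreted target of this response, followed the same order, with 694 and 415 CPM, 90.7 to 117 CPM and 103 to 222 CPM (-1.92 ± 0.24, adjusted p = 0.000301, and 0.53 ± 0.20, adjusted p = 0.0607, by the same test). Without paradoxical culture 3 or 7 or negative culture 2 the last difference passed the threshold (0.59, 0.60 and 0.54, adjusted p = 0.038, 0.039 and 0.0498).

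Hyou1 and Edem1, also members of the list, took other orders. Hyou1, a large chaperone of the same compartment, measured 307 and 239 CPM in negative cultures 1 and 2, 524 to 626 CPM in cultures 3 to 7 and 160 to 347 CPM in paradoxical cultures. It was lower only against cultures 3 to 7 (-1.18 ± 0.16, adjusted p = 0.000316 by edgeR's quasi-likelihood test), and its value against cultures 1 and 2 was -0.12 ± 0.22, which turned to 0.075 without negative culture 1. Edem1, which directs misfolded glycoproteins to degradation, measured 1.85 and 1.72 CPM, then 37.6, 47.7, 39.9, 43.0 and 23.7 CPM in negative cultures 3 to 7, and 2.67 to 7.37 CPM in paradoxical cultures. All 7 paradoxical values lay between the negative sets, nearer to the first (1.38 ± 0.40, adjusted p = 0.0288, and -3.03 ± 0.26, adjusted p = 3.81e-05, by the same test). The first of these calls was lost without negative culture 1 or 2 (adjusted p = 0.17 in each case). Atf4, the transcription factor at the centre of the integrated stress response, is not in this list. It lay between the sets in the order reverse to that of Edem1, with 520 and 410 CPM, 21.0 to 45.0 CPM, and 60.3 to 182 CPM in paradoxical cultures (-1.75 ± 0.34, adjusted p = 0.00371, and 2.16 ± 0.29, adjusted p = 0.000354, by the same test). Its reads and those of Hyou1 are shared with similar transcripts, and without negative culture 1 the first Atf4 value was -1.57 (adjusted p = 0.062).

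Cytosolic heat shock chaperones fold proteins outside the endoplasmic reticulum. Of 5 tested members 4 were higher under paradoxical feedback than in cultures 1 and 2 and 0 were called against cultures 3 to 7. Hspa8, the constitutive Hsp70, measured 1265 and 1060.1 CPM in negative cultures 1 and 2, 2421 to 3282 CPM in cultures 3 to 7 and 2530.4 to 4670.0 CPM in paradoxical cultures. Paradoxical cultures were above the first set and overlapped the second (1.68 ± 0.25, adjusted p = 0.000788, and 0.43 ± 0.16, adjusted p = 0.0667, by edgeR's quasi-likelihood test). The second comparison of Hspa8 was among the calls without paradoxical culture 2 and, with those of Stip1 and Tcp1, without paradoxical culture 4. Hsph1, a nucleotide exchange factor of Hsp70, was higher than cultures 1 and 2 by 1.42 ± 0.18, Hsp90aa1 by 0.98 ± 0.26 and the co-chaperone Stip1 by 0.78 ± 0.23 on the log2 scale. The calls of Hsp90aa1 and Stip1 were lost without negative culture 1 or 2, and that of Stip1 also without paradoxical culture 3 or 6 (adjusted p = 0.050 in each case).

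Most cell cycle genes were higher than in cultures 1 and 2, and none was called higher than in cultures 3 to 7. Of 9 tested genes of the G1/S transition and replication, 8 were higher under paradoxical feedback than in cultures 1 and 2, and the list's median log2 fold change was 1.81. Against cultures 3 to 7, 0 were higher and 3 were lower, with a median of -0.08. Ccnd1, the D-type cyclin that carries growth signals into the cycle, measured 0.463 and 0.504 CPM in negative cultures 1 and 2, then 14.6, 17.8, 17.7, 20.3 and 13.0 CPM, and 2.24 to 6.16 CPM with a median of 3.69 CPM in paradoxical cultures. The 3 sets did not overlap (2.98 ± 0.45, adjusted p = 0.000844, and -2.10 ± 0.26, adjusted p = 0.000226, by edgeR's quasi-likelihood test). Ccnd1 shares reads with similar transcripts, and negative cultures 1 and 2 held few counts of it. By limma-voom its value against cultures 1 and 2 was 2.85 (adjusted p = 0.069), so that call was lost. Cdk2, the kinase that drives entry into S phase, measured 6.85 and 8.48 CPM, 50.5 to 59.7 CPM and 28.7 to 52.5 CPM, so the paradoxical cultures were nearer to cultures 3 to 7 and overlapped them (2.27 ± 0.24, adjusted p = 0.000102, and -0.59 ± 0.14, adjusted p = 0.00989, by the same test). Pcna, the sliding clamp of replication (1.53 ± 0.27), Cdt1, a licensing factor (1.81 ± 0.37), and Tk1, which salvages thymidine (1.62 ± 0.42), were higher than cultures 1 and 2 and were not called against cultures 3 to 7. Without negative culture 1 the calls of Cdt1 and Tk1 were lost, and without negative culture 2 that of Tk1.

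Of 5 tested mitosis genes 2 were called, each in opposite directions against the negative sets. Top2a, the topoisomerase that untangles sister chromosomes, measured 355 and 308 CPM in negative cultures 1 and 2, 926 to 1379.9 CPM in cultures 3 to 7 and 434 to 894 CPM in paradoxical cultures, with no overlap among the sets. The log2 fold changes were 0.99 ± 0.22 and -0.80 ± 0.15 (adjusted p = 0.00865 and 0.00209 by edgeR's quasi-likelihood test). The first was lost without negative culture 1 or 2, and the second fell to -0.40 (adjusted p = 0.12) with the length trend removed. Cdc25b, a phosphatase that activates mitotic kinase, had 1.60 ± 0.23 and -0.55 ± 0.15 in the same order.

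Apoptosis genes encode the machinery of programmed cell death. None of the 5 tested members held against both sets. Casp2, an initiator caspase, measured 0.463 and 0.807 CPM in negative cultures 1 and 2, 12.5 to 19.4 CPM in cultures 3 to 7 and 2.19 to 7.47 CPM in paradoxical cultures. The sets did not overlap (2.80 ± 0.50, adjusted p = 0.00246, and -1.82 ± 0.30, adjusted p = 0.000939, by edgeR's quasi-likelihood test). Negative cultures 1 and 2 held few counts of Casp2. Without negative culture 1 the first value was 2.45, and by limma-voom it was 2.71 (adjusted p = 0.080), so that call was lost. Bax, which opens the outer mitochondrial membrane, lay between the sets the other way round, with 148 and 128 CPM, 33.0 to 43.2 CPM and 55.8 to 77.9 CPM (-1.08 ± 0.15, adjusted p = 0.00044, and 0.80 ± 0.12, adjusted p = 0.000497, by the same test). Xiap, which inhibits caspases, was low throughout, at 0.0953 to 2.35 CPM in paradoxical cultures, 0.908 and 1.11 CPM in negative cultures 2 and 1 and 3.59 to 9.80 CPM in cultures 3 to 7, and was lower against the latter (-3.00 ± 0.64, adjusted p = 0.0043). Casp8, the initiator of the death receptor pathway, was lower than cultures 3 to 7 by a small margin (-0.43 ± 0.11, adjusted p = 0.0128). Casp9, the initiator caspase of the mitochondrial pathway, had log2 fold changes of -0.82 ± 0.46 and 0.52 ± 0.36 (adjusted p = 0.248 and 0.306), and neither passed. It held 84 estimated counts in cultures 1 and 2 together and 100 in cultures 3 to 7. The endogenous Casp9 target shares reads with similar transcripts, and whether these include a transcript of the construct was not tested.

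**Figure D4:**
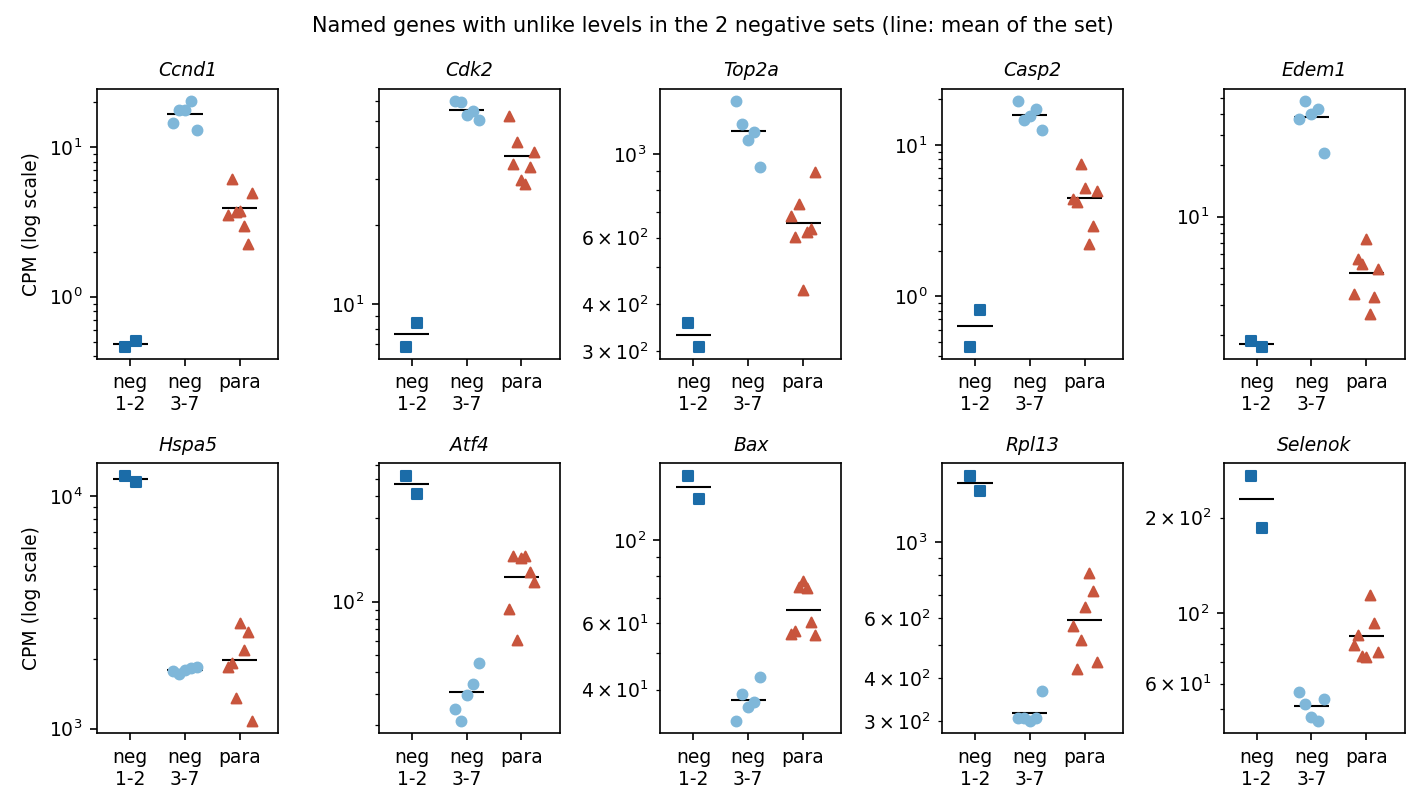
CPM on logarithmic axes in each library of negative cultures 1 and 2 (squares), negative cultures 3 to 7 (circles) and the paradoxical cultures (triangles), with a line at each mean. Ccnd1, Top2a, Casp2 and Edem1 rise from the squares through the triangles to the circles, Atf4, Bax, Rpl13 and Selenok fall in that order, Cdk2 overlaps the circles in part, and for Hspa5 the triangles are level with the circles.

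Of 7 tested redox defence genes, 5 were higher under paradoxical feedback than in cultures 3 to 7, where 20% of named genes were higher, and 0 were called against cultures 1 and 2, with list medians of 0.70 and 0.49. Gstp1, a glutathione transferase, was higher by 1.31 ± 0.30 and Prdx1, a peroxide-reducing enzyme, by 0.89 ± 0.25 on the log2 scale (adjusted p = 0.00618 and 0.0167 by edgeR's quasi-likelihood test). In Gstp1 paradoxical cultures 3 and 7 were at 741 and 746 CPM and the other 5 at 230 to 349 CPM, and cultures 3 and 7 were also the highest of the 7 for Prdx1, at 94.2 and 127 CPM, though paradoxical culture 4 followed at 91.1 CPM. With the length trend removed the Gstp1 and Prdx1 values fell to 0.86 and 0.44 (adjusted p = 0.075 and 0.30). Gpx1, which reduces hydrogen peroxide with glutathione, had a large but uncertain value against cultures 1 and 2 (1.80 ± 0.60, adjusted p = 0.0558). It was among the calls there by DESeq2, with the length trend removed, with the short-target share as covariate and without paradoxical culture 2 or 3.

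Ribosomal protein genes, which have short transcripts, were mostly higher than cultures 3 to 7. Of 9 tested members 7 were higher than in cultures 3 to 7 and 0 lower, while against cultures 1 and 2 1 was higher and 3 were lower. Rpl13 measured 1563 and 1405 CPM in negative cultures 1 and 2, 300.4 to 368 CPM in cultures 3 to 7 and 425 to 810 CPM in paradoxical cultures (-1.33 ± 0.19, adjusted p = 0.000706, and 0.90 ± 0.16, adjusted p = 0.00138, by edgeR's quasi-likelihood test). Fau, which encodes a ribosomal protein fused to a ubiquitin-like domain, lay between the sets in the same order (-2.17 ± 0.41 and 1.62 ± 0.36), as did Ndufa1, a small subunit of respiratory complex I (-1.26 ± 0.18 and 1.05 ± 0.15). Rps13 and Rps14 were each higher than cultures 3 to 7 by 0.77, and with the length trend removed by 0.20 and 0.23 (adjusted p = 0.13 and 0.079). The list's median log2 fold change was -0.16 against cultures 1 and 2 and 0.77 against cultures 3 to 7. The share of counts on short targets, given above, includes any of these genes under 800 nt. It is therefore not independent of their levels.

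Of 12 tested genes of sterol and fatty acid synthesis, 7 were lower, 0 higher and 5 not called against cultures 3 to 7, where 24.7% of named genes were lower, and 1 was higher and 0 were lower than in cultures 1 and 2, with list medians of -0.49 and 0.24. Acaca, the rate-limiting enzyme of fatty acid synthesis, measured 27.9 and 36.6 CPM in negative cultures 1 and 2, 98.9 to 174 CPM in cultures 3 to 7 and 25.2 to 55.4 CPM in paradoxical cultures. It was called against cultures 3 to 7 alone (-1.83 ± 0.20, adjusted p = 0.000133 by edgeR's quasi-likelihood test), and its paradoxical values spanned those of the first set. Pcyt1a, which makes the activated choline of membrane lipid (-0.81 ± 0.10), and Npc1, which exports cholesterol from lysosomes (-0.67 ± 0.15), were also lower than cultures 3 to 7. Srebf2, the regulator of cholesterol genes, was the member between the sets (0.75 ± 0.20 and -0.75 ± 0.14), and without negative culture 1 or 2 its first call was lost.

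In 4 other fixed lists no tested member held against both sets in the same direction, where 1.57% of all named genes did. This is not particular to them: only the ribosomal protein and respiratory chain lists held such a member. Of 11 tested genes of the p53 pathway and DNA repair, 5 were higher and 0 lower than in cultures 1 and 2, and 3 were higher and 2 lower than in cultures 3 to 7, with medians of 0.86 and -0.02. Ercc4, a nuclease of excision repair, measured 1.48 and 1.82 CPM in negative cultures 1 and 2, 10.4 to 15.3 CPM in cultures 3 to 7 and 1.40 to 5.88 CPM in paradoxical cultures, and was lower than cultures 3 to 7 (-2.15 ± 0.32, adjusted p = 0.00058 by edgeR's quasi-likelihood test). Of 6 genes of nucleotide and folate metabolism, which supplies DNA precursors, 5 were higher and 0 lower than in cultures 1 and 2, and 0 were higher and 1 lower than in cultures 3 to 7. Of 17 genes of glycosylation and the Golgi, which build the sugar chains of secreted proteins, 5 were higher and 1 lower than in cultures 1 and 2, and 3 were higher and 6 lower than in cultures 3 to 7, shares near those of all named genes. Of 7 G protein and signalling genes, 4 were higher and 1 lower than in cultures 1 and 2, and 1 was higher and 3 lower than in cultures 3 to 7.

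Several other genes were called in opposite directions or against a single set. Glg1, a Golgi glycoprotein, measured 7.59 and 7.77 CPM in negative cultures 1 and 2, 106 to 179 CPM in cultures 3 to 7 and 17.7 to 36.4 CPM in paradoxical cultures, and its call against cultures 3 to 7 held in 25 of 25 alternative settings (-2.43 ± 0.19, adjusted p = 2.34e-05 by edgeR's quasi-likelihood test). Gna11, a G protein alpha subunit of the Gq class, had 2.42 ± 0.32 and -1.09 ± 0.19, and Furin, a protease that matures secreted proteins, 1.94 ± 0.34 and -0.99 ± 0.21. Dicer1, which cuts microRNA precursors, is given by level alone because negative cultures 1 and 2 together held 2 estimated counts: 0 and 0.202 CPM there, 48.1 to 73.6 CPM in negative cultures 3 to 7 and 4.47 to 21.3 CPM in paradoxical cultures. Gapdh, a glycolytic enzyme often used as a reference gene, was higher than cultures 3 to 7 by 0.61 ± 0.11 (adjusted p = 0.00173 by edgeR's quasi-likelihood test), and Gpi, the next enzyme after glucose phosphorylation, by 0.54 ± 0.11. Ahr, the receptor that binds indole compounds, was lower than cultures 3 to 7 (-2.07 ± 0.47, adjusted p = 0.00599 by the same test) and not called against cultures 1 and 2 (0.52 ± 0.67, adjusted p = 0.671). Without negative culture 1 the Furin value against the first set was 1.70 (adjusted p = 0.051).

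Fold changes depended on transcript length, in opposite ways against the 2 negative sets. Among 914 tested targets from 500 to under 800 nt the median log2 fold change was -0.28 against cultures 1 and 2 and 0.66 against cultures 3 to 7. Among 2038 targets of 6000 nt or more it was 0.10 and -0.49. Of the shortest class, under 500 nt, 52.3% of 216 targets were higher than cultures 3 to 7 and 21.8% lower than cultures 1 and 2, and 0 were called against both sets in 1 direction. Against all 7 negative cultures the median ran from 0.18 in the shortest class to -0.40 in the longest. With the length trend removed, 3593 targets were called against cultures 1 and 2 and 4045 against cultures 3 to 7. With the short-target share as a covariate, 1252 and 51 were called, 0 held against both sets in the same direction and 800 were called against all 7 negative cultures. Since that share did not overlap among the 3 sets, it and the sets can barely be told apart in such a fit.

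**Figure D5:**
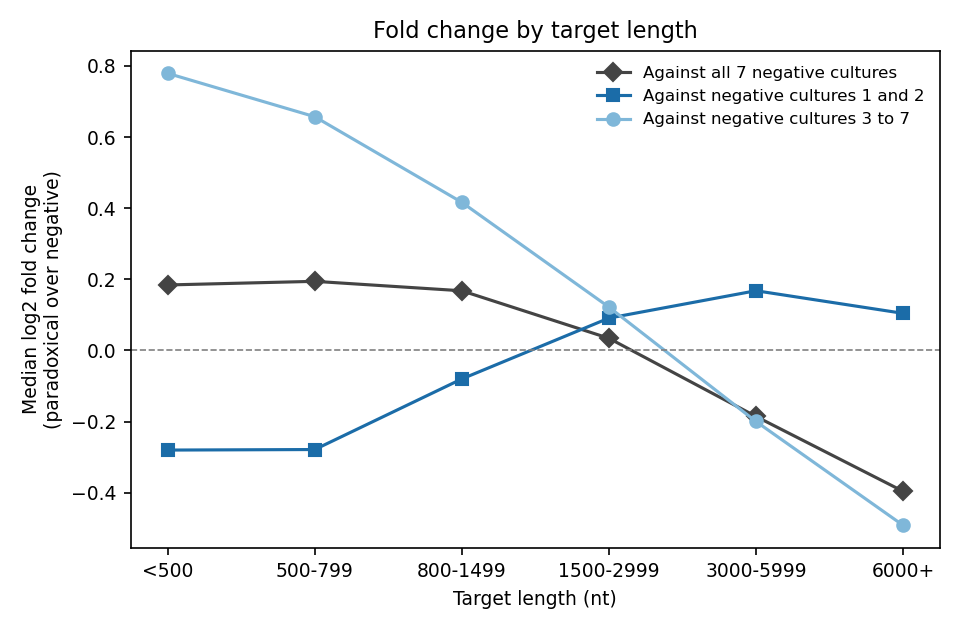
The vertical axis is the median log2 fold change of paradoxical over negative cultures in 6 classes of target length (horizontal axis, nt), against all 7 negative cultures (diamonds), cultures 1 and 2 (squares) and cultures 3 to 7 (circles). Against cultures 3 to 7 the median falls from 0.78 in the shortest class to -0.49 in the longest, and against cultures 1 and 2 it runs from -0.28 to 0.10.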

How the data were processed

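Per the submitters' processing notes, reads were processed with Trim Galore and kallisto, with no versions given. For the genome build and the index annotation, the sources used here give no name. The authors deposited, per the file headers, an estimated count and a TPM for each of 46718 transcript targets. The deposited TPM was not used. A target has shared reads where its estimated count was not whole within 1e-06 in all 14 libraries. RefSeq accessions of assembly CriGri-PICRH-1.0 named 528 targets, of which 334 were protein-coding, with 330 symbols. The marker lists matched 1 gene and were not used; a few genes are not reported here.

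Estimated counts were rounded, filtered with filterByExpr (20297 targets left), scaled by TMM and tested with edgeR 4.0.16 (R 4.3.3), with 1 coefficient per group, and with separate coefficients for negative cultures 1 to 2 and 3 to 7 for the set comparisons. Adjusted p-values are Benjamini-Hochberg values over all 20297 targets, with calls under 0.05. The SE of a log2 fold change is approximate. It was derived from the test, as the absolute fold change divided by the square root of the F statistic. Totals were 9.91 to 13.2 M estimated counts, and CPM uses TMM-scaled totals. Within each group, every pair of libraries differed beyond sampling noise. Library measures were compared by exact permutation over 3432 regroupings. DESeq2 1.42.0 and limma 3.58.1 (voom) were alternatives, beside other scalings, no filter, a short-target covariate, length trend removal and leaving out libraries. The procedure was tested on simulated data with planted changes. The simulated libraries otherwise shared a common profile, with no split of the negative cultures and no trend on length. That test therefore does not cover these features of the data.

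Named genes were: those called against both negative sets in 1 direction; up to 8 in each order called in opposite directions; up to 3 called members of each of the fixed gene lists; a list of genes of known function; the construct; and 4 unnamed targets. Members, lists and the split of the negative cultures were chosen with earlier results of these data known. A promoter motif search that had been planned was not run.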

Additional observations from a re-analysis of the deposited data

Results flagged for a closer look

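In 5 of 160 groups of 7 libraries the highest or the lowest value stood apart by more than 0.568 of the group's range; chance alone flags about 1 in 20 groups. In paradoxical cultures Polr2a, the largest subunit of RNA polymerase II, was highest in culture 3 at 1150.2 CPM. Gpi was highest in culture 2 at 336 CPM, Slc2a1, a glucose transporter, in culture 1 at 37.1 CPM, and Ercc4, a repair nuclease, in culture 4 at 5.88 CPM. In negative cultures Cbx3, a heterochromatin protein, was lowest in culture 1 at 184 CPM. Polr2a and Cbx3 were called against negative cultures 1 and 2 (1.43 ± 0.45 and 0.67 ± 0.21, adjusted p = 0.0437 and 0.0438 by edgeR's quasi-likelihood test), and each call was lost without any 1 of the 7 negative cultures. Without paradoxical culture 1, 2 or 6 both were lost, and without paradoxical culture 5 or 7 that of Cbx3 (adjusted p from 0.051 to 0.35 over all these for Cbx3 and from 0.054 to 0.26 for Polr2a).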

How the results depend on the processing

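Over 2856 alternative values of 114 gene results (76 genes), 2472 kept direction and side of the threshold, 341 lost the call, 25 gained one and 18 turned. The count against all 7 negative cultures was 0 with TMM, DESeq2's size factors or library size alone, and 1172 (369 higher, 803 lower) by DESeq2, 41 (25 and 16) by limma-voom, 77 with all 19 libraries, 800 with the short-target share as covariate, 1688 without negative cultures 3 to 7, 5548 without cultures 1 and 2, and 0 to 375 leaving out 1 library. Against cultures 1 and 2 it was 5432 by DESeq2, 1252 with the covariate, 1688 in a separate fit and 1281 to 4040 leaving out 1 library; limma-voom called 1376 higher and 2294 lower. Against cultures 3 to 7 it was 51 with the covariate and 4200 to 6016 leaving out 1 library; limma-voom called 3047 higher and 3781 lower, and DESeq2's size factors with edgeR 2741 and 2787. In the same direction against both, it was 82 with no filter, 252 by DESeq2, 0 with the covariate, 72 with the length trend removed, 52 in separate fits and 33 to 326 leaving out 1 library. In opposite directions it was 924, 2236, 8 and 701 for no filter, DESeq2, the covariate and separate fits, and 526 to 1454 leaving out 1 library. Non-overlapping targets numbered 158 to 361 leaving out 1 library, where a rise is built in. The difference in short-target share was -3.59 points without negative cultures 3 to 7 and 3.60 without cultures 1 and 2. Where a fit with a single culture of the first set is used, that culture is assumed to vary like the other groups.

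With the replicate number as a replicate block the counts were 0 against all 7, 625 and 2979 against the sets, and 4 and 210 against both in the same and in opposite directions. The correlation of same-numbered deviations ran from -0.212 to 0.136, and a paradoxical culture correlated best with its own number only for number 4, so the samples share only a number.

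With the short-target share as covariate these values against cultures 3 to 7 turned: Rps4x -0.14, Fau -0.26, Hspa5 -0.56, Xiap 0.29, Ercc1 -0.020, Npc1 0.065, Slc35a3 1.62, Rps14 -0.046, Ahr 0.16, Ubb -0.11 and Creld2 -0.098. With the length trend removed, Sdhc against cultures 3 to 7 became -0.077. In the same setting the construct (vYM133_linearized_insertion) against all 7 negative cultures became 0.33. The construct was also 0.099 without negative cultures 1 and 2 and ran from -0.11 to 0.027 leaving out 1 library. Hyou1 against cultures 1 and 2 ran from -0.29 to 0.075 leaving out 1 library. Other causes of these changes were not tested. Depth limits the precision of levels of genes with few counts in cultures 1 and 2, such as Dicer1, Ccnd1 and Casp2.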

Other observations

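Selenos, Selenok and Oaz1, which belong to none of the gene lists, were chosen after their values were seen. The first pair does not stand for selenoprotein genes as a group. Gpx1, a selenoprotein gene of the redox defence list, had a positive value against cultures 1 and 2 that did not pass the threshold. Selenos and Selenok, both selenoproteins of the endoplasmic reticulum membrane that act in the removal of misfolded protein, lay between the negative sets. Selenos measured 225 and 156 CPM in negative cultures 1 and 2, 21.0 to 25.8 CPM in cultures 3 to 7 and 29.4 to 46.4 CPM in paradoxical cultures (log2 fold changes -2.35 ± 0.16 and 0.65 ± 0.14, adjusted p = 1.18e-05 and 0.00421 by edgeR's quasi-likelihood test). Selenok measured 272 and 186 CPM, 45.8 to 56.5 CPM and 72.7 to 114 CPM (-1.43 ± 0.16 and 0.73 ± 0.13). Oaz1, the antizyme that lowers polyamine synthesis, was higher than cultures 3 to 7 by 0.64 ± 0.11 on the log2 scale (adjusted p = 0.00124 by the same test), and its value against cultures 1 and 2 was 0.26 ± 0.15 (adjusted p = 0.256). Over all 7 negative cultures it was 0.52 ± 0.12 (adjusted p = 0.105), and it was among the calls there by DESeq2, with the short-target share as covariate and without negative culture 1 or 2. With that covariate it was called against cultures 1 and 2 and not against cultures 3 to 7, and with the length trend removed against both.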
